A study of Rattus norvegicus with 12 samples.

Results

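The 8 genes described here encode the core of the major histocompatibility complex (MHC) class II machinery of the rat: the invariant chain (Cd74), the alpha and beta chains of the classical molecules RT1-D (RT1-Da, RT1-Db1) and RT1-B (RT1-Ba, RT1-Bb), both chains of the peptide exchanger RT1-DM (RT1-DMa, RT1-DMb) and the transactivator Ciita. They are the rows of the deposited count table that carry these symbols, 8 of 18800, and they were chosen by name with measured values of these libraries already known, so their levels are a description. Of the 8, 7 passed the filter on low counts that 15487 genes passed, and Ciita did not.

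Messenger RNA of brain tissue from Sprague-Dawley rats was sequenced, and the labels name neither the brain region nor the side. Control rats were restrained and received no electroacupuncture. Model rats had middle cerebral artery occlusion followed by reperfusion (MCAO/R, a rat model of stroke in which a large artery of the brain is blocked and reopened) and the same restraint. Electroacupuncture rats had MCAO/R, restraint and electroacupuncture (needles carrying a weak current) at the Tianfu, Chize, Kongzui and Taiyuan points of the Lung Meridian of the foreleg. The control columns are named as sham-operated in the table, while the labels name no operation for that group. The labels give no age or sex and do not say that samples came from separate animals, so a p-value here reflects only variation among these libraries, some of which may be technical. Of 11 deposited columns, 3 pairs within a group differed by little more than sampling noise and were each counted as 1 sample. This left control A, B and C, model A (columns 1 and 2) and B (columns 3 and 4), and electroacupuncture A (column 1), B (columns 2 and 3) and C (column 4). Total counts per sample ran from 9335913 to 23835724. Electroacupuncture A stood apart from all other libraries, differing from the other electroacupuncture columns by 24.6 to 26.5 times the variance that sampling gives (median over genes of the squared difference), so the group comparisons of the members are also given without it, while values over gene lists include it.

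MHC class II molecules carry peptides from ingested proteins to the surface of antigen-presenting cells, where CD4+ T cells read them. The invariant chain holds the peptide groove shut on the way through the cell, lysosomal proteases such as cathepsin S cut it down, and DM exchanges its last fragment for a peptide. In healthy brain, class II is scarce on resting microglia and more abundant on macrophages at the borders of the brain, and it is a classical sign of microglial activation after injury. Transcription depends on CIITA, which is recruited to DNA by RFX bound at the X box, by CREB beside it and by NF-Y bound at the Y box, and which interferon-gamma induces.

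Promoter sequence is shown because the X and Y boxes are what class II genes are known to share. RefSeq's promoter table (rat build GRCr8, 250 bases before to 50 after the start) held 6 of the 8 members, with RT1-DMb and Ciita not among them. The letters searched were ACNGATG for the core of the X box and GATTGG for the Y box, on both strands, and the motifs do not overlap. The 130 bases before the start are printed 5′ to 3′ on the gene's strand for the 5 members that hold the Y-box letters, with matches on that strand in capitals. For RT1-Da and RT1-Db1, the start in this table lies 22 and 20 bases from the gene's 5′ boundary in the RefSeq gene table.
RT1-Da, chr20:4515285-4515414, plus strand: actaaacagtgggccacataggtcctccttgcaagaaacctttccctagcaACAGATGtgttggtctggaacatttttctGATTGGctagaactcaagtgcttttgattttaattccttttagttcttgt
RT1-Db1, chr20:4560163-4560292, minus strand: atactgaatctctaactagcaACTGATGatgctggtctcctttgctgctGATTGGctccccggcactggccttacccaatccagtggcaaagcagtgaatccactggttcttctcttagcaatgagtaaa
RT1-Ba, chr20:4576927-4577056, plus strand: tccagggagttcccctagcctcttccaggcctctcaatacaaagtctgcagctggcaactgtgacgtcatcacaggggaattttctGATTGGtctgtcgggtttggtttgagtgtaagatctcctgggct
RT1-Bb, chr20:4604119-4604248, minus strand: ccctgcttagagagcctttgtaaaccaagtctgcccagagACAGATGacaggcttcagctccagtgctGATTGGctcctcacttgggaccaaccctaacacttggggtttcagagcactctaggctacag
RT1-DMa, chr20:4712336-4712465, minus strand: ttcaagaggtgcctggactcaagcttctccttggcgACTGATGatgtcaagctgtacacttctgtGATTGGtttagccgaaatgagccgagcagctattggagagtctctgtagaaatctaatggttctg

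RT1-Da, RT1-Db1, RT1-Bb and RT1-DMa each held the X-box letters followed by the Y-box letters, with 28 or 29 bases between their first bases. The X-box letters began 79 bases before the start in RT1-Da, 109 in RT1-Db1, 90 in RT1-Bb and 94 in RT1-DMa. RT1-Db1 also held the Y-box letters on the opposite strand, 55 bases before the start. RT1-Ba held only the Y-box letters, 44 bases before the start, and Cd74 held neither set of letters in its window. Of 33469 promoters, 10.2% held the X-box letters, 14.8% the Y-box letters and 24, or 0.0717%, the X-box letters followed 20 to 40 bases later by the Y-box letters. Those 24 promoters belong to 23 symbols, of which 6 are class II genes: the 4 members above, RT1-DOb (a chain of DO, which restrains DM) and RT1-Db2 (a further beta-chain gene of RT1-D). These letters are a description of the sequence and not evidence of a bound factor.

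**Figure D1:**
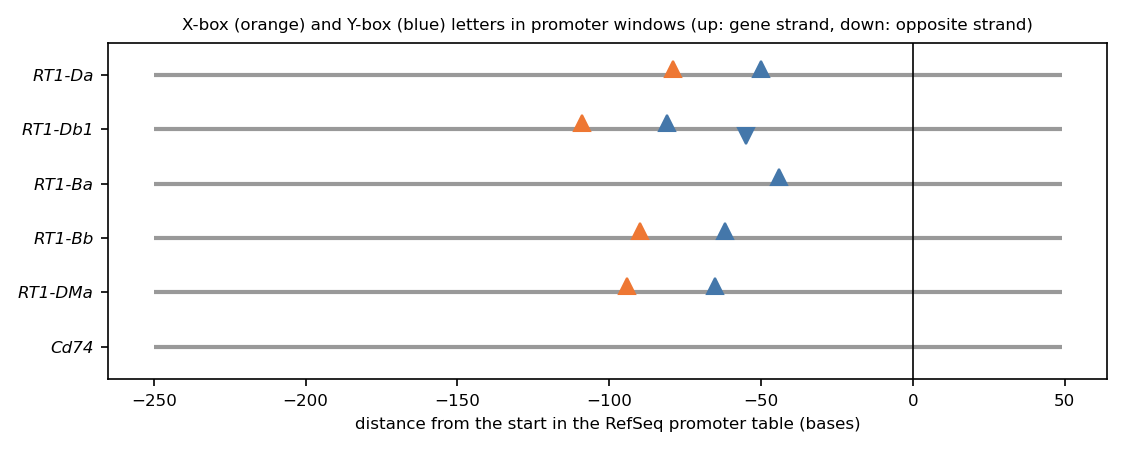
Position of the first base of each match to the X-box letters (orange) and Y-box letters (blue) in the promoter windows of 6 members, in bases from the start in RefSeq's promoter table, with triangles pointing up for the gene's strand and down for the opposite strand. In RT1-Da, RT1-Db1, RT1-Bb and RT1-DMa the X-box letters precede the Y-box letters by 28 or 29 bases.

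Cd74, the invariant chain, was high in 2 of the 8 samples. The control columns held 87, 72 and 130 estimated reads, the model columns 830, 849, 102 and 130, and the electroacupuncture columns 9575, 185, 200 and 110. As CPM (a gene's count divided by its library's total, after TMM scaling, in the usual unit of counts per mega-read), controls A, B and C were at 7.97, 8.19 and 11.9, models A and B at 90.0 and 12.7, and electroacupuncture A, B and C at 831, 16.4 and 11.6. Both model samples lay above all controls, but model B by less than 1 CPM, while electroacupuncture A was alone at 88.8 times the control mean and model A stood at 9.62 times that mean. The group means were 9.36 ± 2.21 CPM (SD, n = 3) in controls, 51.3 ± 54.6 (SD, n = 2) in the model and 286 ± 471 (SD, n = 3) with electroacupuncture, and the mean of electroacupuncture B and C alone was 14. The last 2 groups thus had a spread larger than their mean. In bulk tissue, more cells of a type and more RNA per cell cannot be told apart.

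The chains of RT1-D, the rat counterpart of human HLA-DR, were highest in the same samples. For RT1-Da, the alpha chain, control columns held 10, 4 and 37 reads, model columns 107, 85, 15 and 19, and electroacupuncture columns 1673, 21, 19 and 9. Its CPM values were 0.916, 0.455 and 3.39 in controls A to C, 10.3 and 1.86 in models A and B, and 145, 1.70 and 0.949 in electroacupuncture A to C. Model A and electroacupuncture A lay above every control, whereas model B and electroacupuncture B and C lay inside the control range. RT1-Db1, the beta chain, held 7, 10 and 35 reads in the control columns, 50, 38, 15 and 20 in the model columns and 1359, 16, 19 and 19 in the electroacupuncture columns. That gave 0.642, 1.14 and 3.21 CPM in controls, 4.71 and 1.92 in the model and 118, 1.49 and 2.00 with electroacupuncture. Again the high samples were electroacupuncture A, at 71 times the control mean, and model A, at 2.84 times. RT1-Db2, named here because its promoter shares the motif pair and its values had been seen, held 48.1 reads in electroacupuncture column 1 and at most 1 in every other column. The split between RT1-Db1 and RT1-Db2 is uncertain, since the sources used here do not say how reads that match several gene copies were shared out.

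RT1-B, the counterpart of human HLA-DQ, showed the same high samples and differed at the low end. RT1-Ba, its alpha chain, held 24, 26 and 48 reads in the control columns, 179, 161, 10 and 9 in the model columns and 2266, 35, 27 and 6 in the electroacupuncture columns. In CPM, these were 2.20, 2.96 and 4.40 in controls, 18.2 and 1.04 in the model and 197, 2.64 and 0.633 with electroacupuncture. Model B and electroacupuncture C lay below every control, at 0.327 and 0.199 times the control mean. RT1-Bb, the beta chain, held 29, 22 and 34 reads in the control columns, 72, 64, 2 and 4 in the model columns and 811, 28, 19 and 4 in the electroacupuncture columns. Its values of 2.66, 2.50 and 3.12 CPM in controls contrasted with 7.29 and 0.329 in the model and 70.4, 2.00 and 0.422 with electroacupuncture. Model B stood at 0.119 times the control mean and model A at 2.64 times, so the model samples lay on opposite sides of the controls. Its columns of model B held only 2 and 4 reads, which limits the precision of its value.

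The DM chains varied least. RT1-DMa, the alpha chain, held 255, 199 and 369 reads in the control columns, 195, 190, 228 and 252 in the model columns and 533, 303, 352 and 265 in the electroacupuncture columns. Its level was 23.4, 22.6 and 33.8 CPM in controls, 20.6 and 26.3 in the model and 46.2, 27.8 and 27.9 with electroacupuncture. Model A, the sample with raised Cd74 and RT1-D, had the lowest RT1-DMa of all 8 samples, and the highest sample was only 2.24 times the lowest. RT1-DMb, the beta chain, stood at 9.71, 8.07 and 14.4 CPM in controls, 18.4 and 15.9 in the model and 44.2, 14.1 and 7.59 with electroacupuncture. Both model samples lay above all controls for RT1-DMb, and electroacupuncture A was highest at 4.12 times the control mean. The highest sample of Cd74, RT1-Da, RT1-Db1, RT1-Ba and RT1-Bb was 104, 319, 184, 311 and 214 times the lowest, and without electroacupuncture A these ratios were 11.3, 22.6, 7.35, 28.8 and 22.2.

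Ciita, the transactivator, was close to the counting limit. Its control columns held 2, 0 and 0 reads, its model columns 5, 2, 3 and 9 and its electroacupuncture columns 18, 2, 0 and 2. As CPM of the unscaled total count, electroacupuncture A was at 1.76 (95% exact Poisson interval 1.04 to 2.78), model A at 0.400 (0.161 to 0.825) and model B at 0.657 (0.340 to 1.15). Control A was at 0.179 (0.0217 to 0.646), and the 0 counts of controls B and C allowed up to 0.395 and 0.325. Electroacupuncture A therefore lay above the intervals of all controls. The interval of model A overlapped those of all controls, and that of model B overlapped those of controls A and B and of electroacupuncture A. Pooled over reads, Ciita was 8.47 times as frequent in the model as in the controls (interval 2.04 to 75.0, from 19 and 2 reads) and 28.0 times as frequent in electroacupuncture A (6.70 to 249). In electroacupuncture B and C together the ratio to controls was 1.88 (0.270 to 20.8). These intervals cover counting error only and not the spread between samples. Model B was above model A, as for RT1-DMa and unlike the other 6 members, but the Ciita intervals of the model samples overlapped.

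**Figure D2:**
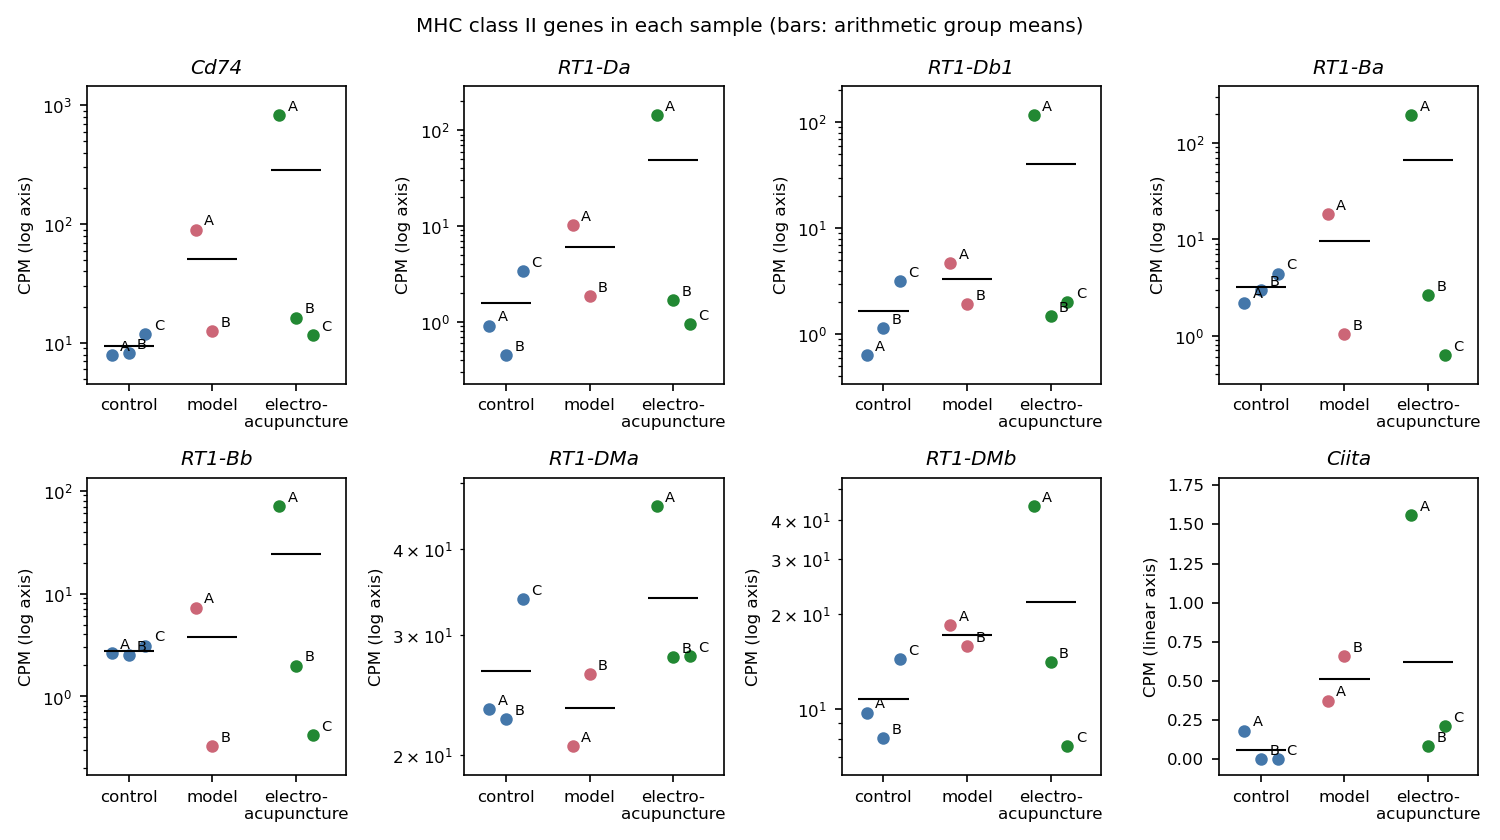
Level of each class II gene in CPM by sample, for 3 control, 2 model and 3 electroacupuncture samples marked A to C, with bars at the arithmetic group means and log axes except for Ciita. Electroacupuncture A is the highest sample of all 8 genes, at 831 CPM for Cd74, and model A is the next for Cd74, RT1-Da, RT1-Db1, RT1-Ba, RT1-Bb and RT1-DMb.

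The balance between members also differed between samples. Shares of reads between a pair of genes are not corrected for transcript length, so they have a meaning only between samples. Cd74 made up 25.4%, 26.6% and 26.1% of the reads of Cd74 and RT1-DMa in controls A to C, against 81.3% (95% exact binomial interval 79.6 to 83.0) in model A and 94.7% (94.3 to 95.2) in electroacupuncture A. Model B at 32.6%, electroacupuncture B at 37.0% and electroacupuncture C at 29.3% lay nearer to the controls, all above them. Within DM, the alpha chain made up 52.8% (49.1 to 56.5) of DM reads in model A and 51.2% (48.1 to 54.2) in electroacupuncture A, against 70.2% to 73.7% in controls. Model B at 62.3% (58.8 to 65.8) and electroacupuncture B at 66.4% (63.3 to 69.3) also lay below the controls, and electroacupuncture C at 78.6% (73.9 to 82.9) lay above them. The intervals of controls A to C were 65.6 to 75.3, 68.0 to 78.9 and 66.0 to 74.0. Those of electroacupuncture B and C overlapped all of these, and that of model B overlapped control A's. For RT1-B, the alpha chain made up 45.3% to 58.5% of reads in controls, 71.4% (67.1 to 75.4) in model A and 73.6% (72.0 to 75.2) in electroacupuncture A. The intervals of controls B and C reached up to 68.6 and 69.3 and overlapped that of model A. Model B had a like share of 76.0% (54.9 to 90.6) at a low level of both chains. For RT1-D, electroacupuncture A at 55.2% (53.4 to 57.0) lay between the controls, which ran from 28.6% to 58.8%, and model A was at 68.6% (62.8 to 74.0). That interval of model A overlapped those of control A (32.9 to 81.6) and control C (39.3 to 63.3).

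The first comparison asked how class II genes differed between MCAO/R and control brains. None of the 7 tested members was called with edgeR's quasi-likelihood test at a Benjamini-Hochberg adjusted p under 0.05. In that test, 0 had an unadjusted p under 0.05, beside 13.8% of all genes. Over all genes edgeR called 0.00646%. DESeq2, whose outlier cutoff left 5 of the 7 (Cd74 and the classical chains) with no adjusted p in every comparison, called neither DM chain, where it called 4.93% of all genes. Without that cutoff, an alternative chosen after seeing the data, DESeq2 called 0 of 7 (Cd74 adjusted p = 0.516) and 4.98% of all genes. The model mean of Cd74 was 5.48 times that of the controls (log2 fold change 2.45, SE 1.71, adjusted p = 0.551), RT1-Da was at 1.91 (SE 2.01), RT1-Ba at 1.59 (SE 2.03) and RT1-Db1 at 0.98 (SE 1.82) on the log2 scale. RT1-DMb was at 0.68 (SE 0.65), RT1-Bb at 0.46 (SE 1.86) and RT1-DMa at -0.18 (SE 0.29). Cd74 and RT1-DMb were the 2 of 7 members with both model samples above all controls, a pattern that 18.2% of all genes showed. The members' median log2 fold change was 0.98, beside 0.017 over all genes tested. It was 0.19 without model A, 0.61 without control A and 1.91 without control C. Without model A, the only high sample of the group, Cd74 was at 0.44 (SE 2.22), RT1-Ba at -1.61 and RT1-Bb at -3.04, with the lone model sample assumed to vary like the other groups. When electroacupuncture A was left out of the shared estimate of spread, Cd74 stayed at 2.44 with an SE of 0.74 and an adjusted p of 0.139, and again 0 members were called, where 3.7% of all genes were.

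Electroacupuncture against model asked whether the treated brains differed from the untreated ones, and its direction rested on 1 library. With all samples, 7 of 7 tested members were higher with electroacupuncture, and none was called by edgeR, which called 0% of all genes. In its test, 0 members had an unadjusted p under 0.05, beside 13.5% of all genes. DESeq2 called neither DM chain and, without its outlier cutoff, 0 of 7 (RT1-Db1 adjusted p = 0.291), where it called 4.51% and 4.49% of all genes. RT1-Db1 had a log2 fold change of 3.60 (SE 1.96, adjusted p = 0.494), RT1-Da of 3.02 (SE 2.11), RT1-Ba of 2.79 (SE 2.18), RT1-Bb of 2.66 (SE 1.99) and Cd74 of 2.48 (SE 1.85). RT1-DMa was at 0.54 (SE 0.30) and RT1-DMb at 0.35 (SE 0.66). Only for RT1-DMa did all electroacupuncture samples exceed both model samples, 1 of 7 against 12.9% of all genes. The members' median was 2.66, beside 0.034 over all genes. Without electroacupuncture A, 6 of the 7 turned to lower values: Cd74 was at -1.86 (SE 0.83, adjusted p = 0.283), RT1-Da at -2.14, RT1-Db1 at -0.93, RT1-Ba at -2.45, RT1-Bb at -1.54 and RT1-DMb at -0.64. RT1-DMa stayed above 0, at 0.25. No member was called in that fit either, where 1.82% of all genes were.

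Electroacupuncture and control brains were compared next, in a contrast that shares its samples with the other comparisons. All 7 tested members had positive log2 fold changes with every sample in, at 4.93 (SE 1.79) for Cd74, 4.92 (SE 2.03) for RT1-Da, 4.58 (SE 1.79) for RT1-Db1, 4.38 (SE 2.04) for RT1-Ba, 3.13 (SE 1.76) for RT1-Bb, 1.03 (SE 0.59) for RT1-DMb and 0.35 (SE 0.26) for RT1-DMa. All had an adjusted p of 0.843 in edgeR's test, none was called, and 0% of all genes were. DESeq2 called neither DM chain and, without its outlier cutoff, 0 of 7 (Cd74 adjusted p = 0.614), with 0.00646% of all genes called either way. Unadjusted p-values were under 0.05 for Cd74 (0.0271), RT1-Da (0.0446) and RT1-Db1 (0.0361), as for 419 higher and 148 lower genes of the 15487. No member had every electroacupuncture sample above every control, against 5.98% of all genes. The median was 4.38, beside 0.0053 over all genes. Without electroacupuncture A it was 0.03, with Cd74 at 0.58 (SE 0.74), RT1-Db1 at 0.04, RT1-Da at -0.24, RT1-Ba at -0.87 and RT1-Bb at -1.09.

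**Figure D3:**
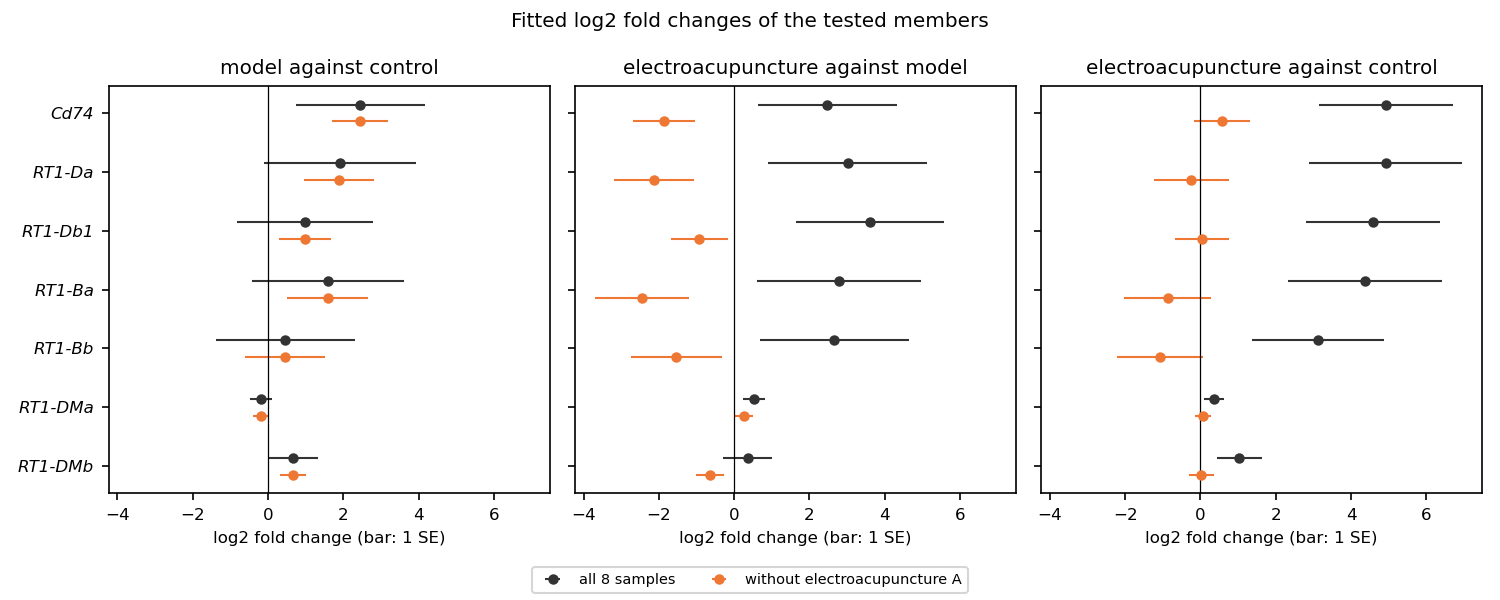
Log2 fold change of the 7 tested class II genes in each comparison, with bars of 1 SE, from the fit of all 8 samples (black) and without electroacupuncture A (orange). In electroacupuncture against model, Cd74 is at 2.48 with all samples and at -1.86 without that library. The values of model against control hardly move, since that library is in neither of its groups. Its bars are shorter without the library (Cd74 SE 1.71 and 0.74), which entered the shared estimate of spread.

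Measured by how far electroacupuncture A exceeded the highest other sample, the members stood near the top of the 14811 tested genes that averaged at least 1 CPM. RT1-Db1 was 25.0 times higher there than in any other sample and ranked 1, RT1-Da was 14.1 times higher and ranked 2, and RT1-Ba was 10.8 times higher and ranked 5. RT1-Bb (9.65 times) ranked 8 and Cd74 (9.23 times) ranked 10, while RT1-DMb (2.40 times) ranked 290 and RT1-DMa (1.37 times) ranked 1370. The SD of log2 CPM over the 8 samples was 2.24 to 2.55 for Cd74 and the 4 classical chains, 0.806 for RT1-DMb and 0.369 for RT1-DMa, beside a median of 0.333 over those genes. RT1-DMa was thus close to an ordinary gene in its spread.

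The factors that act on class II promoters varied less than the members in most samples. All 14 genes of the list of class II transcription and interferon-gamma signalling were tested and edgeR called 0 in each comparison. In model against control 5 were higher and 9 lower, with a median log2 fold change of -0.08, and in electroacupuncture against model 10 were higher and 4 lower, with a median of 0.24. Nfyc, a subunit of NF-Y, was at 66.3 ± 4.21 CPM (SD, n = 3) in controls, 49.2 and 56.2 in models A and B, and 85.5, 68.1 and 68.3 in electroacupuncture A to C, so both model samples lay below all others. Ifngr1, the ligand-binding chain of the interferon-gamma receptor, was at 28.0 to 31.1 CPM in controls, 43.7 and 50.4 in the model and 96.8, 35.2 and 36.7 with electroacupuncture, with all operated samples above the controls. Jak1, a kinase that this receptor uses, was at 4.21 CPM in model B and between 100.3 and 171.6 in the other samples. The mean level of the list relative to controls was -0.64 (log2) in model B, 0.23 in electroacupuncture A and 0.00 in model A.

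Genes that load, cut or recycle class II moved less than the members themselves. Of 15 symbols, 11 were in the table and 9 were tested, with 0 called by edgeR in each comparison and 8 higher in model against control (median log2 fold change 0.23). Ctss, cathepsin S, was at 143, 138 and 230 CPM in controls, 484 and 246 in models A and B, and 599.5, 220 and 209 in electroacupuncture A to C. Its high samples were those of Cd74, with model A at 484 CPM close to electroacupuncture A, unlike Cd74 itself. Ifi30, the lysosomal thiol reductase GILT, was at 35.7 CPM in model A, 30.5 in electroacupuncture A and 10.1 to 14.6 elsewhere. Ctsb, cathepsin B, varied only from 407 to 591 CPM over all samples. RT1-DOb and RT1-DOa, the chains of DO, did not pass the filter, and RT1-DOb held 28 reads in electroacupuncture column 1 and 8 or fewer in each other column.

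Among co-stimulators and T-cell partners, 6 of 9 listed genes were tested and edgeR called 0 in each comparison. Cd4, the co-receptor that binds class II and that rat macrophages and microglia also carry, was at 79.8 CPM in model A and 81.6 in electroacupuncture A, against 7.24 to 14.7 in the other 6 samples. Lag3, an inhibitory receptor for class II, was at 3.43 CPM in model A, 3.64 in electroacupuncture A and 0.183 to 0.641 elsewhere. For both genes the 2 high samples were about level, whereas Cd74 differed between them. Cd40, a co-stimulatory receptor of antigen-presenting cells, had another pattern, with 9.70 CPM in model A, 5.97 in model B, 3.21 to 4.43 in controls and 2.53 to 3.82 with electroacupuncture. In edgeR's test Cd40 was not called in either comparison with the model (adjusted p = 0.235 against control and 0.178 for electroacupuncture against model), although both model samples lay above all others. DESeq2 called it in electroacupuncture against model (adjusted p = 0.0223).

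The ligands and co-receptors of surface CD74 showed no such pair of high samples except Cd44 in model A. Of 6 listed, 5 were tested and edgeR called 0 in each comparison. Mif, the cytokine that binds CD74, was lowest in electroacupuncture A at 204 CPM and ran from 266 to 369 elsewhere. Ddt, its relative, was also lowest there, at 83.5 CPM against 103 to 155. Cd44, the signalling partner of CD74, was at 22.3 CPM in model A and 4.93 to 12.1 elsewhere, and Cxcr4 was at 7.72 CPM in electroacupuncture A and 1.26 to 3.85 elsewhere.

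Class I presentation, which displays peptides from inside the cell, differed less between samples. All 20 genes of the list that were in the table were tested, edgeR called 0 in each comparison, and 13 were higher and 7 lower in model against control (median log2 fold change 0.28). B2m, the light chain of class I, was at 855 CPM in model A and 848 in electroacupuncture A and at 360 to 481 elsewhere. RT1-S3 and RT1-T24-4, class I heavy-chain genes whose reads may be shared with close copies, were at 41.7 and 49.1 CPM in electroacupuncture A, at 35.0 and 35.6 in model B, and at 27.1 and 33.6 in electroacupuncture C. Calr, calreticulin, ran from 496 to 700.4 CPM, with all controls above all other samples. The mean level of the list relative to controls was 0.83 (log2) in electroacupuncture A and 0.60 in model A, where the class II members stood at 4.72 and 1.76. Over all 5 pathway lists, 54 of 66 symbols were tested, with 33 higher and 21 lower in model against control, 27 and 27 in electroacupuncture against model, and 37 and 17 in electroacupuncture against control. At an unadjusted p under 0.05 in edgeR's test these lists held 2, 2 and 4 genes in the 3 comparisons, or 3.7%, 3.7% and 7.41% of those tested, beside 13.8%, 13.5% and 3.66% of all genes.

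**Figure D4:**
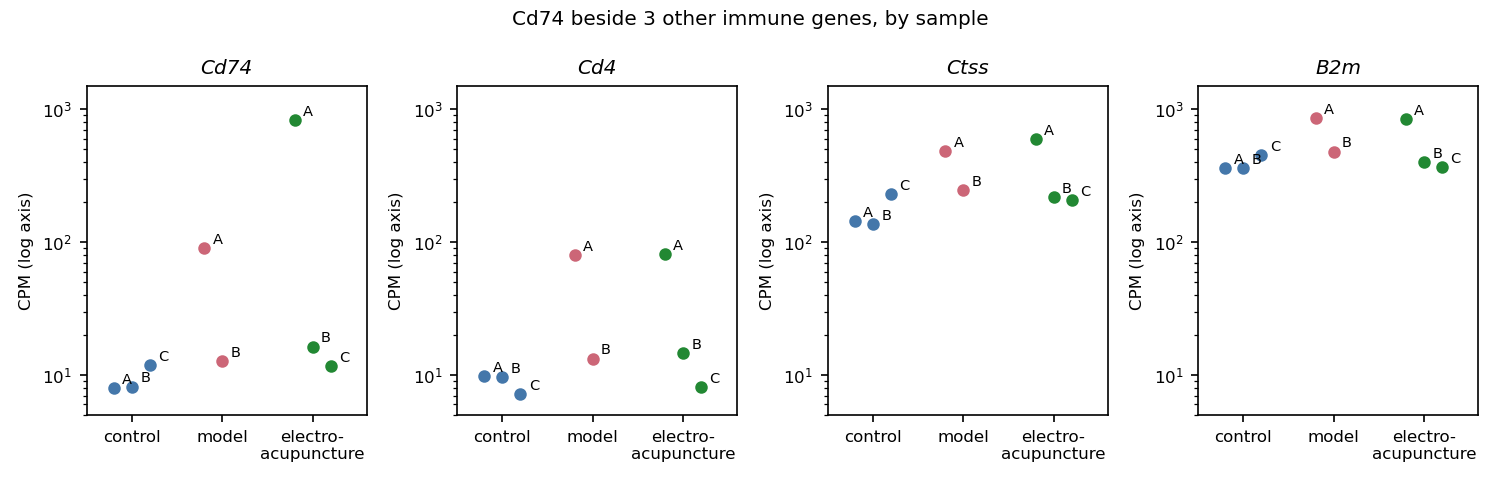
Level of Cd74 beside Cd4, Ctss and B2m in CPM (log axes) in each of the 8 samples, marked A to C within its group. Model A and electroacupuncture A are about level for Cd4 (79.8 and 81.6 CPM) and B2m (855 and 848 CPM), whereas Cd74 is at 90.0 and 831 CPM.

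Among markers of other cells, the sum of those of microglia was highest in the high samples of Cd74, electroacupuncture A and model A. Sall1 departed from this, at 102 CPM in model B, 63.9 in electroacupuncture A and 45.4 in model A. Each other microglial marker had its highest levels in electroacupuncture A and model A, with Aif1 higher in model A (80.8 CPM against 61.3). In electroacupuncture A, the sums of border macrophage, dendritic-cell and T-cell markers did not exceed the control range. All 11 microglial markers in the table were tested, and their summed level was 220 to 247 CPM in controls, 572 and 407 in models A and B, and 872, 320 and 236 in electroacupuncture A to C, with none at 0 in any sample. All 11 had higher group means in model against control and in electroacupuncture against control, and edgeR called 0. In its test, 2 and 4 of them had an unadjusted p under 0.05, beside 13.8% and 3.66% of all genes. The microglial list stood 2.07 (log2) above controls in electroacupuncture A and 1.43 in model A. Model B was at 0.73 for microglia while the class II members were at -0.27 there. The 7 border macrophage markers in the table summed to 22.7 CPM in electroacupuncture A and 54.5 in model A, against 21.1 to 30.8 in controls. The 5 B-cell markers in the table were all below the filter, with sums of 0.733 to 1.65 CPM over the 8 samples. The 8 T-cell markers summed to 3.73 CPM in electroacupuncture A, 7.56 to 23.5 in the model and 11.5 to 34.0 in controls. Cd3e alone made up 8.15 to 29.4 CPM in controls, 0.0536 and 0.219 in models A and B, and 0.954, 6.84 and 10.2 in electroacupuncture A to C. Cd247 made up 19.1 CPM of the sum in model A. Cd3d, Cd3g and Cd5 were at 0.211 CPM or less in every sample, and Cd2 was at 0.434 in electroacupuncture A and 0.0850 to 0.438 elsewhere. The 8 dendritic-cell markers summed to 17.6 CPM in electroacupuncture A, 43.5 to 58.7 in the model and 17.6 to 23.1 in controls. Of these, Itgax was highest in electroacupuncture A, at 2.26 CPM against 0 to 0.733, Flt3 was lowest there, at 2.86 against 5.27 to 23.3, and Ccr7 was at 0 in 6 of the 8 samples.

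Of the region lists, only that of striatal neurons set electroacupuncture A and model A apart from all other samples by its sum. The 8 markers of striatal neurons summed to 4664 CPM in electroacupuncture A and 691 in model A, against 149 to 345 in the other 6 samples, and none was at 0. Markers of hippocampal neurons, of which 6 of 8 were tested, summed to 118 CPM in electroacupuncture A, 104 in model B and 131 in model A, and to between 328 and 438 in the other 5. Markers of neocortical neurons summed to 818 CPM in model B and 219 to 264 elsewhere. Endothelial markers were highest in electroacupuncture A, at 341 CPM against 117 to 236, and choroid plexus and ependymal markers were at 142 CPM there and at 1375 in control C, of which 1344 were Ttr. The ciliated-cell genes of that list were highest in the same samples as class II: Foxj1 was at 54.2 CPM in electroacupuncture A, 17.5 in model A and 2.41 to 6.80 elsewhere, and Tmem212 at 36.4, 8.79 and 0.110 to 4.97. Neutrophil and monocyte markers summed to 5.73 CPM in electroacupuncture A, 6.97 and 5.97 in models A and B, and 14.55 to 27.2 in the other 5 samples. Cxcr1 was at 0.260 CPM in electroacupuncture A, 0.0536 and 0.3285 in models A and B, and 10.4 to 25.8 in the other 5. S100a9 of that list, at 2.86 CPM in electroacupuncture A, lay within the range of 0.738 to 4.93 of the others. The part of these cell and region markers in the class II values was not tested.

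**Figure D5:**
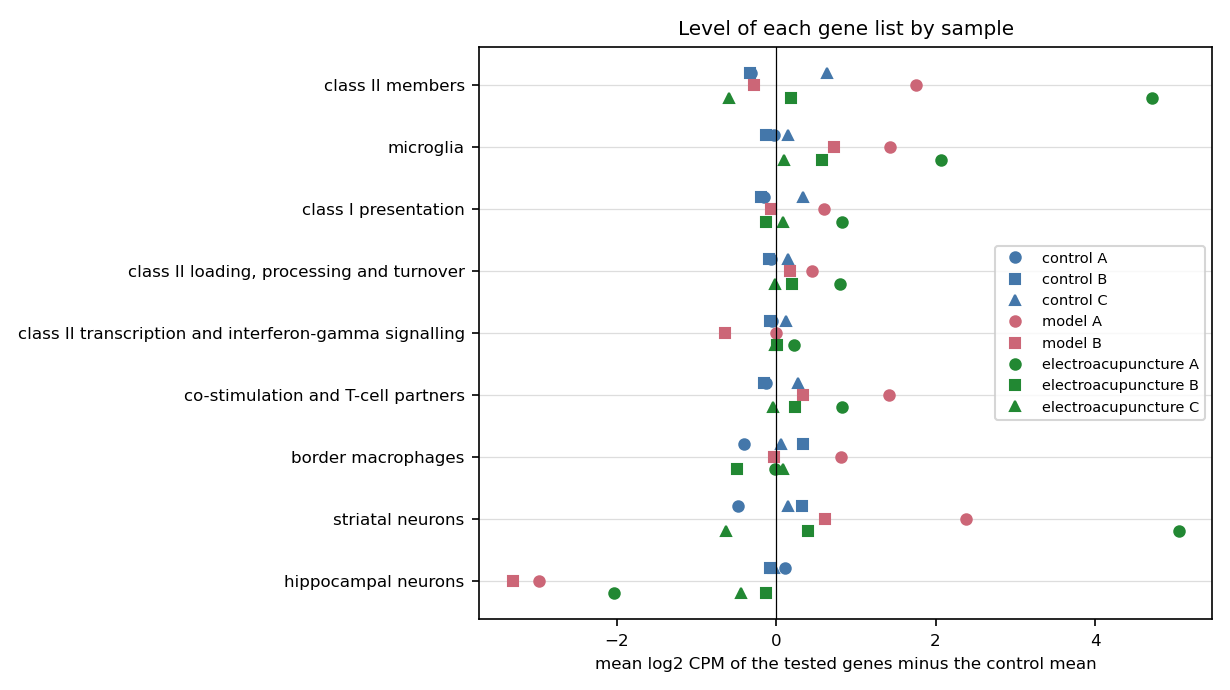
Mean log2 level of the tested genes of each list relative to the control mean in each of the 8 samples, with colours for the groups and shapes for samples A to C. The class II members stand at 4.72 in electroacupuncture A and 1.76 in model A, the microglial list at 2.07 and 1.43, and the striatal list at 5.05 and 2.38.

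The genes whose pattern over the 8 samples was most like the members' mean were ranked by the root mean square difference of centred log2 CPM, among genes that averaged at least 1 CPM. Among the nearest were Dach1 (0.403), Tbc1d10c (0.453), Kif18b (0.456), LOC108349185 (0.468), Olr1 (0.474), Dnah3 (0.475), Rarb (0.479), Slc35d3 (0.497) and Ppp1r1b (0.504). Dach1 was at 26.3 CPM in electroacupuncture A, 6.64 in model A and 1.16 to 1.74 elsewhere. Ppp1r1b, which encodes DARPP-32 of striatal neurons, was at 2067 CPM in electroacupuncture A, 218 in model A and 94.2 to 125 elsewhere. The members' own distances from their mean ran from 0.654 for Cd74 to 1.46 for RT1-DMa. The listed genes lay nearer to that mean, but they were picked as the nearest of all ranked genes, so this says little. The members' mean was at 3.991 (centred log2) in electroacupuncture A and -1.32 to 1.035 elsewhere, so likeness rested largely on that library. It could also lift a gene's average CPM: Dnah3 was at 15 CPM there and 0.164 to 1.71 elsewhere.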

How the data were processed

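Per the labels' protocols, libraries from poly(A)-selected brain RNA marked the strand and were read from both ends. The authors deposited estimated counts (expected counts) per gene, not normalized. The submitters' processing notes list DESeq2 1.16.1, featureCounts 1.5.0-p3, HISAT2 2.0.5 and StringTie 1.3.3b without their roles, and the sources used here do not name a genome build. The table has 18804 rows, in which 4 symbols stand on 2 rows each. Counts were rounded to whole numbers and such rows summed. Columns were matched to groups by name only: 4 for each operated group, and 3, named as sham-operated, for 4 labelled controls. Columns of a group with a median squared difference under 2 times the sampling variance (1.34 to 1.4 times in 3 pairs, 4.75 to 26.5 in all others) were summed. Column totals ran from 8668140 to 11920744.

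The test was edgeR's two-sided quasi-likelihood F test (version 4.0.16, R 4.3.3) with robust dispersion, TMM scaling and the default expression filter by group (8 samples in 1 fit, 5 residual degrees of freedom, common biological coefficient of variation 36.8%), and genes were called at a Benjamini-Hochberg adjusted p under 0.05. The script was tested on simulated data. Standard errors were derived from the F statistic, and log2 CPM used a prior count of 2. Alternatives were DESeq2 1.42.0 (also without its Cook's distance outlier cutoff, chosen after seeing the data), median-of-ratios factors, total-count scaling, no filter, a stricter filter (5 CPM in 2 samples), all columns as separate libraries, only the 2 groups compared, and leaving out each sample. Members and gene lists were chosen with earlier results of these data known. The text names all members, of each pathway list the called genes, the 2 with the highest mean CPM and the 2 with the largest change in model against control, and the 10 genes most like the members, except items that are not reported here. Cell markers and RT1-DOb beside them were named after their values were seen. Promoters come from RefSeq (GRCr8).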

Additional observations from a re-analysis of the deposited data

How the results depend on the processing

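The count of called members was 0 in every comparison under every alternative run (other scaling, no or stricter filter, DESeq2, all columns as separate libraries, only 2 groups, each sample left out), but DESeq2's outlier cutoff gave 5 of the 7 members no adjusted p. DESeq2 without that cutoff, chosen after seeing the data, gave all 7 one and also called 0. Over the 21 single log2 fold changes and 16 alternatives, 320 values moved by less than the spread between replicates and 16 by more, 12 of these without electroacupuncture A and 4 without model A. That spread included electroacupuncture A and was wide, at 1.96 (log2) for the members' mean. Cd74 in model against control, 2.45 with all samples and 0.44 without model A, was thus among the 320. Leaving out a sample of the group not compared could hardly move a value, so the tally says little about stability. The sign turned in 12 cases: 9 without electroacupuncture A, 2 without model A (RT1-Ba -1.61 and RT1-Bb -3.04 in model against control) and 1 without control C (RT1-DMa, 0.04). The members' median over the fits that left out 1 sample ran from 0.19 to 1.91 in model against control, from -1.54 to 4.49 in electroacupuncture against model and from 0.03 to 4.97 in electroacupuncture against control, with the lowest value of the latter comparisons in the fit without electroacupuncture A. Of pathway genes, DESeq2 with or without the cutoff called 1 (Cd40) in electroacupuncture against model. With all columns as separate libraries, 1 was called in model against control (Cd40) and 2 in electroacupuncture against model (Nfyc and Cd40). Leaving out 1 sample gave 0 to 2 calls in each of these comparisons: 2 in both without model A, with Jak1 among them, and Ifngr1 (1 call, model against control) without electroacupuncture A. Over all genes, where the edgeR fit of 8 samples called 1, 0 and 0 in model against control, electroacupuncture against model and electroacupuncture against control, DESeq2 called 763, 698 and 1, all columns as separate libraries 1129, 1666 and 0, only the 2 groups compared 294, 0 and 0, the fit without model A 356, 308 and 0, and that without electroacupuncture A 565, 278 and 0. The cause was not tested. No paired analysis was possible because the column numbers could not be tied to the labelled sample numbers, with 3 control columns for 4 labelled samples and like columns of different number counted as 1 sample. Low counts limit Ciita, with 0 to 18 reads per column, and RT1-Bb in model B, with 2 and 4.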
